A study of Mus musculus with 14 samples.

Results

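Organoids of the mouse small intestine without *Atg16l1* in their epithelium (*Atg16l1* ΔIEC) were set against WT organoids by bulk mRNA sequencing, with 4 libraries of each genotype, 8 of the 14 libraries in the series, taken by their labels alone. *Atg16l1* ΔIEC organoids were homozygous for a floxed *Atg16l1* allele and carried Villin-Cre (+/-), a transgene expressed in the intestinal epithelium. WT organoids carried the floxed alleles of both *Atg16l1* and *Rnaseh2b* and no Cre, so that the groups also differed in Cre itself and in the floxed *Rnaseh2b* allele. The remaining 6 libraries were 2 of *Rnaseh2b* ΔIEC (floxed *Rnaseh2b*, Villin-Cre +/-) and 4 of *Atg16l1/Rnaseh2b* ΔIEC (both floxed alleles, Villin-Cre +/-) and are used only where named. All organoids grew from intestinal stem cells in IntestiCult medium without treatment. The labels of the libraries carry no age and no passage.

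ATG16L1 holds the ATG5-ATG12 conjugate at the forming autophagosome and so directs the attachment of LC3 and GABARAP proteins to its membrane. The gene is a susceptibility locus of Crohn's disease, and in the intestinal epithelium it is best known for its part in the secretory granules of Paneth cells, in the survival of epithelial cells exposed to cytokines and in the clearance of bacteria and damaged organelles. Autophagy also degrades p62, a cargo receptor that binds KEAP1, and KEAP1 in turn holds back the antioxidant transcription factor NRF2.

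The deposited values are log2 expression values normalised by the authors. The reads behind a value could not be recovered from them, so the depth of each library is unknown. All 4 WT libraries were read on lane 1 and all 4 *Atg16l1* ΔIEC libraries on lane 2, and genotype and lane cannot be told apart in this comparison. Only *Atg16l1/Rnaseh2b* ΔIEC had libraries on both lanes, 1 and 2 on lane 2 and 3 and 4 on lane 1. Libraries also came in pairs of 1 sex. *Xist*, the RNA of the inactive X chromosome, stood at 13.32 and 13.24 in *Atg16l1* ΔIEC 1 and 2 and at 7.75 and 7.80 in *Atg16l1* ΔIEC 3 and 4, and at 7.70 and 7.69 in WT 1 and 2 and at 13.68 and 13.60 in WT 3 and 4. WT, *Atg16l1* ΔIEC and *Atg16l1/Rnaseh2b* ΔIEC thus each held a female and a male pair, both *Rnaseh2b* ΔIEC libraries were male, and in *Atg16l1/Rnaseh2b* ΔIEC the male pair was the pair on lane 2. Of 5 sex-linked genes limma called 0 between *Atg16l1* ΔIEC and WT, with 0 at an unadjusted p under 0.05. Across 12406 autosomal genes, deviations from the genotype mean correlated within pairs (0.31 and 0.58 in *Atg16l1* ΔIEC, 0.71 and 0.72 in WT), a description across genes, which are not independent of each other. The labels do not say whether libraries of a genotype came from separate mice or cultures, so p-values measure only the spread between these libraries. Counts obtained with the pair as a random effect, whose correlation was estimated at 0.645 in that fit, and with lane as a covariate, estimated from *Atg16l1/Rnaseh2b* ΔIEC alone, are therefore given for most gene groups. Lane coincided with sex and pair in *Atg16l1/Rnaseh2b* ΔIEC, so the lane covariate also carries the difference between its sexes and pairs. The median log2 fold change of the 5 sex-linked genes moved from -0.1 to -3.22 with it.

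The targeted gene was low in every *Atg16l1* ΔIEC library. *Atg16l1* (ENSMUSG00000026289, GRCm38 chr1:87755870-87792428, plus strand) read 9.43, 9.54, 9.44 and 9.44 in WT 1 to 4 and 6.87, 7.35, 6.75 and 6.73 in *Atg16l1* ΔIEC 1 to 4. The groups did not overlap, with *Atg16l1* ΔIEC 2 the highest of the *Atg16l1* ΔIEC libraries, and the difference corresponded to a 5.8-fold lower level (log2 fold change -2.54, SE 0.12, limma adjusted p = 1.6e-07, n = 4 and 4; exact two-sided permutation p = 0.029, the smallest that 4 against 4 libraries allow). In *Rnaseh2b* ΔIEC it stood at 9.52 and 9.53, at the WT level, and in *Atg16l1/Rnaseh2b* ΔIEC at 8.37, 8.14, 8.57 and 8.47, between WT and *Atg16l1* ΔIEC. *Rnaseh2b*, which encodes a subunit of RNase H2, read 8.47, 8.41, 8.58 and 8.70 in WT 1 to 4 and 8.71, 8.72, 8.58 and 8.48 in *Atg16l1* ΔIEC 1 to 4. Those groups overlapped (log2 fold change 0.08, SE 0.08, limma adjusted p = 0.48; exact two-sided permutation p = 0.26). Both permutations took every library as independent, although libraries came in correlated pairs.

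Of 18781 genes in the deposited table, 12804 had a mean log2 value over the 14 libraries at or above the log2 of 10, a geometric mean of 10, and were tested with limma at an adjusted p of 0.05. Transcripts at 2450 genes (19.1%) differed between *Atg16l1* ΔIEC and WT, 1117 higher (8.72%) and 1333 lower (10.4%) in *Atg16l1* ΔIEC. The changes were small, with a median absolute log2 fold change of 0.21 among called genes and 2277 of them (92.9%) under 0.5. Only 17 genes exceeded 1, 13 downward and 4 upward. Over all genes tested the median log2 fold change was 0.00 and the median SE 0.05. With the pair as a random effect 384 genes were called, 143 higher (1.12%) and 241 lower (1.88%), all of them among the 2450. With each pair averaged to 1 value, which leaves 2 values per genotype, *Atg16l1* alone was called. With lane as a covariate the calls were 777 higher (6.07%) and 809 lower (6.32%), and 680 of the 2450 were called in the same direction.

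Among genes whose libraries did not overlap, the falls with the largest log2 fold changes were led, after *Atg16l1* itself, by genes of the response to low oxygen and of glucose use. *Adm*, encoding the vasodilator peptide adrenomedullin, read 9.45, 9.29, 8.85 and 8.98 in WT 1 to 4 and 7.10, 7.41, 7.64 and 7.65 in *Atg16l1* ΔIEC 1 to 4. *Hk2*, encoding the hexokinase that traps glucose in the cell, read 10.85, 10.90, 11.14 and 11.05 in WT 1 to 4 and 9.72, 9.66, 9.38 and 9.52 in *Atg16l1* ΔIEC 1 to 4. *Pfkfb3*, whose product raises the allosteric activator of phosphofructokinase, read 11.42, 11.41, 11.15 and 11.06 in WT 1 to 4 and 10.12, 9.83, 9.68 and 9.79 in *Atg16l1* ΔIEC 1 to 4. In all 3 genes the highest *Atg16l1* ΔIEC library lay far below the lowest WT library, and the log2 fold changes were -1.69 (SE 0.18), -1.41 (SE 0.10) and -1.41 (SE 0.11), with limma adjusted p of 7.8e-05, 2.7e-06 and 6.4e-06. *Mab21l3*, whose function is little known, had a log2 fold change of -1.35, with 9.19, 9.10, 9.15 and 9.08 in WT 1 to 4 against 7.89, 7.76, 7.76 and 7.72 in *Atg16l1* ΔIEC 1 to 4. *Smtnl2*, a smoothelin-like gene, had -1.24, and *Dlc1*, a tumour suppressor gene, -1.19. *Ankrd37* and *Egln3*, the latter a prolyl hydroxylase that marks HIF proteins for degradation, had -1.15 and -1.14. The early response gene *Ier3* had -1.11, and *Hif3a*, which encodes a HIF subunit that can restrain the others, -1.05. Each of these 11 genes was called by limma with an adjusted p between 1.6e-07 (*Atg16l1*) and 0.00045 (*Mab21l3*), passed with the pair as a random effect and kept its call without any 1 of the 8 libraries, but with pairs averaged *Atg16l1* alone did.

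The rises were smaller and less even. *Reg3a*, encoding an antimicrobial lectin of a gene family with similar sequences, read 8.09, 7.80, 7.31 and 7.51 in WT 1 to 4 and 8.54, 8.48, 9.72 and 8.84 in *Atg16l1* ΔIEC 1 to 4. *Rnf144b*, a ubiquitin ligase gene, read 8.10, 8.19, 8.02 and 8.06 in WT 1 to 4 and 9.19, 8.98, 9.18 and 9.39 in *Atg16l1* ΔIEC 1 to 4. *Tinag*, a basement membrane antigen gene, read 9.22, 9.20, 9.27 and 9.26 in WT 1 to 4 and 9.97, 9.94, 9.93 and 9.97 in *Atg16l1* ΔIEC 1 to 4. The *Rnf144b* and *Tinag* libraries were tight within each genotype, whereas *Reg3a* was drawn upward by *Atg16l1* ΔIEC 3 and varied between the WT pairs. Log2 fold changes were 1.22 (SE 0.29) for *Reg3a*, 1.10 (SE 0.08) for *Rnf144b* and 0.72 (SE 0.04) for *Tinag*, with limma adjusted p of 0.01, 3.3e-06 and 1.6e-07. *Cirbp*, encoding a cold-inducible RNA-binding protein, stood at 10.63, 10.89, 10.96 and 10.91 in *Atg16l1* ΔIEC against 9.99, 10.07, 10.16 and 10.15 in WT (log2 fold change 0.75). *Plekhm3* (0.83), *Insc* (0.71), an adaptor of spindle orientation, and *Gsta2* (0.71), a glutathione transferase close in sequence to *Gsta1*, were called in every analysis that left out 1 library. So were *Bbox1* (0.73), of carnitine synthesis, and the carboxylesterase *Ces1f* (0.71), although neither these nor *Reg3a* passed with the pair as a random effect. The interferon-inducible *Ifi27* (1.02, SE 0.30, limma adjusted p = 0.032) lost its call without *Atg16l1* ΔIEC 2, 3 or 4 or WT 1, 2 or 4 (log2 fold changes 0.84 to 1.06). *G6pc*, the glucose-6-phosphatase of gluconeogenesis, had 0.84 and lost its call without *Atg16l1* ΔIEC 3 or 4 or WT 3 or 4 (log2 fold changes 0.68 to 0.77), and the fructose transporter *Slc2a5* had 0.71 and lost it without *Atg16l1* ΔIEC 3 or 4 or WT 3 or 4 (log2 fold changes 0.61 to 0.67) and turned to -0.01 with lane as a covariate. In *G6pc* and *Slc2a5* the *Atg16l1* ΔIEC 3 and 4 libraries were the highest and WT 3 and 4 the lowest, so that the size of both rises depended on which pair was read.

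**Figure D1:**
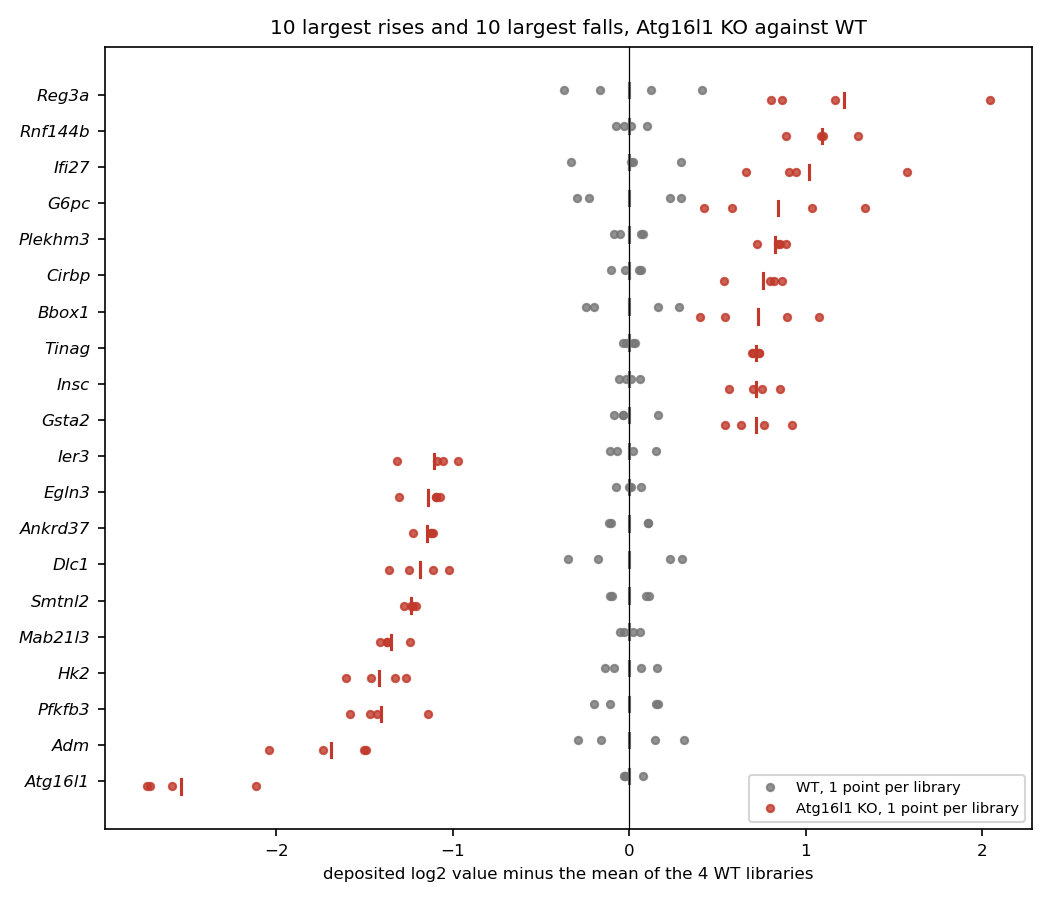
Deposited log2 value of each library minus the mean of the 4 WT libraries, for the 10 genes that rose most and the 10 that fell most in *Atg16l1* knockout (KO) against WT organoids (x axis, log2 units; each point is 1 library, vertical bars are group means). The knockout libraries of *Atg16l1* lie furthest to the left, with a log2 fold change of -2.54, and all 20 genes were chosen to have no overlap between the groups.

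Hypoxia-inducible transcripts had the median furthest from 0 among 36 gene lists. HIF transcription factors accumulate when oxygen is scarce and induce genes of glucose uptake, angiogenesis and their own degradation. Of 26 genes of the hypoxia response tested, 18 fell and 3 rose, where 10.4% and 8.72% of all genes tested did. The median log2 fold change of the list was -0.58 beside 0.00 over all genes, and the libraries of 22 members did not overlap, against 24.6% of all genes. *Ankrd37* read 10.54, 10.54, 10.33 and 10.32 in WT 1 to 4 and 9.21, 9.32, 9.31 and 9.31 in *Atg16l1* ΔIEC 1 to 4. *Egln3*, the more abundant transcript, read 13.48, 13.41, 13.55 and 13.49 in WT 1 to 4 and 12.18, 12.39, 12.41 and 12.39 in *Atg16l1* ΔIEC 1 to 4. *Vegfa*, the angiogenic growth factor, read 12.48, 12.55, 12.79 and 12.77 in WT 1 to 4 and 11.86, 11.91, 11.98 and 12.02 in *Atg16l1* ΔIEC 1 to 4. All 4 *Atg16l1* ΔIEC libraries lay below all 4 WT libraries in each of the 3, with log2 fold changes of -1.15 (SE 0.10), -1.14 (SE 0.14) and -0.70 (SE 0.17). Among members chosen for mention after their values were seen, the glucose transporter *Slc2a1* read 12.19, 12.22, 12.21 and 12.21 in WT 1 to 4 and 11.22, 11.43, 11.30 and 11.39 in *Atg16l1* ΔIEC 1 to 4, and the histone demethylase *Kdm3a* 12.80, 12.78, 12.88 and 12.80 in WT 1 to 4 and 12.17, 12.01, 12.12 and 12.18 in *Atg16l1* ΔIEC 1 to 4. Their log2 fold changes were -0.87 (SE 0.12) and -0.70 (SE 0.05), while the most abundant member, *Ndrg1*, had -0.72 (SE 0.10). One of the 3 members that rose was *Hif1a*, the oxygen-regulated subunit itself, with 11.42, 11.37, 11.38 and 11.33 in WT 1 to 4 and 11.86, 11.66, 11.91 and 11.83 in *Atg16l1* ΔIEC 1 to 4 (log2 fold change 0.44). The 5 members that were not called were *Bnip3* -0.15, *Car9* -0.27, *Pdk1* -0.10, *Higd1a* -0.12 and *Epas1* -0.29.

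The same list was read in each library as the median difference from the WT mean. It was 0.00, 0.00, 0.02 and -0.03 in WT 1 to 4, -0.62, -0.57, -0.59 and -0.56 in *Atg16l1* ΔIEC 1 to 4, -0.62 and -0.56 in *Rnaseh2b* ΔIEC 1 and 2, and -0.57, -0.27, -0.06 and -0.04 in *Atg16l1/Rnaseh2b* ΔIEC 1 to 4. All libraries of lane 2 therefore lay at or below -0.27 and all libraries of lane 1 at or above -0.06, across genotypes. The summed linear level of the 26 genes was 150000 to 158000 in WT and 94200 to 102000 in *Atg16l1* ΔIEC. With the pair as a random effect 15 members passed, 14 of them downward and 1 upward (1.88% and 1.12% of all genes did), and *Vegfa* did not. With lane as a covariate 8 were called lower and 1 higher (6.32% and 6.07% of all genes), the list median was -0.19, and the *Vegfa* estimate turned to 0.10. *Adm*, *Hk2* and *Pfkfb3* were still called lower with that covariate. Within *Atg16l1/Rnaseh2b* ΔIEC, *Hk2* read 10.64, 10.67, 11.02 and 10.97 and *Adm* 8.20, 8.42, 8.90 and 8.98, with the lower values on lane 2 in both. The part that the lane played in the fall of these genes cannot be told apart from that of the genotype.

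Of 15 glycolytic genes 3 fell (10.4% of all genes did), *Hk2*, *Pgam1* (-0.28, SE 0.04) and *Pfkl* (-0.25, SE 0.06), 14 had a lower mean, and the median was -0.16. *Hk2* alone passed with the pair as a random effect. The median turned once lane was a covariate, with 1 higher, 1 lower (all genes 6.07% and 6.32%) and a median of 0.11.

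HIF dimers bind short elements with the letters ACGTG or GCGTG. In promoters of 300 bases that end 50 bases after the transcription start (RefSeq, GRCm38.p6), at least 1 such run on either strand was found in 20 of 23 hypoxia genes with a promoter in the table (87.0%) and in 16 of 19 called members (84.2%), where 63.0% of the promoters of tested genes and 43.8% of all 27025 promoters held it. Because so short a run is common, a match describes the sequence and is not a binding site. The promoters of the 4 hypoxia genes that fell most are shown 5′ to 3′ in the direction of transcription, with every match in capitals (CACGC and CACGT are the same letters read on the other strand). They lie at chr7:110627407-110627706 on the plus strand (*Adm*), chr2:11553880-11554179 on the minus strand (*Pfkfb3*), chr8:45999801-46000100 on the minus strand (*Ankrd37*, where 2 matches overlap on opposite strands) and chr12:54203825-54204124 on the minus strand (*Egln3*).
Adm: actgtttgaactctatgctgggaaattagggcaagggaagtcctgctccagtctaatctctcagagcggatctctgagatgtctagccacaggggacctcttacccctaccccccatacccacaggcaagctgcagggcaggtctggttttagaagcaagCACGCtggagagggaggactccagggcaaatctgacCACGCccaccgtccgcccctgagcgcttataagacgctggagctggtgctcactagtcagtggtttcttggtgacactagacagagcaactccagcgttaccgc
Pfkfb3: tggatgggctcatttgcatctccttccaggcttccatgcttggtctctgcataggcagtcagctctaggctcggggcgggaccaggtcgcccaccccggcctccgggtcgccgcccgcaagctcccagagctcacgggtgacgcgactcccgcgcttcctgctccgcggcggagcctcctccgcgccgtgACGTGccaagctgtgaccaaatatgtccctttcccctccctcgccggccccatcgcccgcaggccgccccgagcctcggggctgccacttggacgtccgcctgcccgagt
Ankrd37: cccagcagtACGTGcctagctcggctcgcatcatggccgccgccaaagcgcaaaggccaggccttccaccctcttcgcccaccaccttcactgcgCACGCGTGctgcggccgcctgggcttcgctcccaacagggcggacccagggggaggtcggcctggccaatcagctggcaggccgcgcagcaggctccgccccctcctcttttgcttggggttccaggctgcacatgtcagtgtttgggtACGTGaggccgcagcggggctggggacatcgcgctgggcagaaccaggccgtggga
Egln3: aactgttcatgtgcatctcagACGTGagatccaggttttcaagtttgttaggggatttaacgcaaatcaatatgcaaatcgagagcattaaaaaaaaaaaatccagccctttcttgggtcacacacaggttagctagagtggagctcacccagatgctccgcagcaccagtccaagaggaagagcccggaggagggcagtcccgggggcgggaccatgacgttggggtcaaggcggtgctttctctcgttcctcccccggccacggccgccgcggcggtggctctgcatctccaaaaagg

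Most of the called NRF2 targets and antioxidant genes were higher. NRF2 induces enzymes that make glutathione, conjugate electrophiles with it and restore NADPH, and KEAP1 targets it for degradation. Of 29 genes tested, 15 rose and 2 fell (8.72% and 10.4% of all genes did), with a median of 0.28. *Nqo1*, the quinone reductase commonly read as an NRF2 target, stood at 10.59, 10.41, 10.56 and 10.64 in WT 1 to 4 and 10.90, 11.02, 11.20 and 11.07 in *Atg16l1* ΔIEC 1 to 4. *Srxn1*, encoding sulfiredoxin, stood at 11.26, 11.06, 11.24 and 11.19 in WT 1 to 4 and 11.55, 11.73, 11.98 and 11.87 in *Atg16l1* ΔIEC 1 to 4. *Gclc*, the catalytic subunit of glutathione synthesis, stood at 10.73, 10.71, 11.02 and 11.04 in WT 1 to 4 and 11.19, 11.30, 11.39 and 11.24 in *Atg16l1* ΔIEC 1 to 4. In all 3 the lowest *Atg16l1* ΔIEC library exceeded the highest WT library, with log2 fold changes of 0.50 (SE 0.06), 0.59 (SE 0.09) and 0.40 (SE 0.08) and limma adjusted p of 0.00019, 0.0009 and 0.0054. The glutathione transferases *Gsta1* (0.68), *Gsta2* (0.71) and *Gstm1* (0.70) had the largest rises of the list but belong to families in which short reads can be divided between near-identical copies, so the gene that carried each rise is uncertain. *Aldh1a1* (0.67, SE 0.21, limma adjusted p = 0.04) lost its call without *Atg16l1* ΔIEC 3 or 4 or WT 2, 3 or 4 (log2 fold changes 0.52 to 0.65) and read -0.13 with lane as a covariate. The falling members were *Hmox1*, the heme oxygenase (8.94, 8.87, 9.05 and 9.08 in WT, 8.25, 8.48, 8.44 and 8.43 in *Atg16l1* ΔIEC; log2 fold change -0.58), and *Keap1* itself (-0.25), named after its value was seen, as the second of the 2. *Hmox1* read 0.03 with lane as a covariate. *Nfe2l2*, which encodes NRF2, differed by less than the spread between libraries (-0.07), and the p62 gene *Sqstm1* read 12.20, 12.28, 12.48 and 12.45 in WT 1 to 4 and 12.45, 12.57, 12.48 and 12.53 in *Atg16l1* ΔIEC 1 to 4, which overlapped (log2 fold change 0.15, SE 0.08, limma adjusted p = 0.19).

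With the pair as a random effect 7 antioxidant genes were called higher (1.12% of all genes were), *Nqo1*, *Srxn1* and *Gclc* among them, and 1, *Keap1*, lower, and with lane as a covariate 9 were called higher (6.07% of all genes) and none lower, with a median of 0.13. Medians of the list relative to the WT mean were 0.04, -0.08, 0.00 and 0.04 in WT 1 to 4, 0.19, 0.28, 0.37 and 0.32 in *Atg16l1* ΔIEC 1 to 4, 0.20 and 0.20 in *Rnaseh2b* ΔIEC 1 and 2 and 0.19, 0.17, 0.20 and 0.20 in *Atg16l1/Rnaseh2b* ΔIEC 1 to 4. All 3 knockout genotypes thus stood above WT, *Rnaseh2b* ΔIEC with its *Atg16l1* at the WT level included, and *Atg16l1/Rnaseh2b* ΔIEC on both lanes. All 3 also carried Villin-Cre, which WT did not, and the parts of Cre, lane and the deleted genes were not tested. The letters TGACNNNGC, a core of the antioxidant element, were found on either strand in 9 of 26 promoters of the list (34.6%) and in 4 of 14 of its called members (28.6%), against 14.8% of the promoters of tested genes and 12.5% of all promoters. The *Srxn1* promoter (chr2:152105274-152105573 on the plus strand) is printed because that gene had the largest rise among the called members named here other than the transferases and *Aldh1a1*. Its match, in capitals, lies after the start of transcription and is read on the other strand.
Srxn1: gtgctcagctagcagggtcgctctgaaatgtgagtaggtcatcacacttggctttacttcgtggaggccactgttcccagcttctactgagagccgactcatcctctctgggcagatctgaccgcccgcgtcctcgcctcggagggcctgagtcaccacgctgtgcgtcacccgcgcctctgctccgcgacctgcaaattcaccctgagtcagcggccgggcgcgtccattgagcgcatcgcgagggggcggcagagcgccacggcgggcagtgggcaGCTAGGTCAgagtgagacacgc

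Genes induced by interferon were higher in part. Interferons and cytosolic nucleic acid sensors induce a shared set of antiviral genes through STAT and IRF transcription factors. Of 32 tested of 39 listed, 9 rose (8.72% of all genes did) and the other 23 were not called, with a median of 0.25. *Oas1a*, an oligoadenylate synthetase gene with a close relative in *Oas1g*, read 6.85, 6.96, 6.93 and 6.79 in WT 1 to 4 and 7.65, 7.51, 7.73 and 7.45 in *Atg16l1* ΔIEC 1 to 4. *Parp14* read 7.93, 7.96, 7.83 and 7.70 in WT 1 to 4 and 8.28, 8.33, 8.79 and 8.66 in *Atg16l1* ΔIEC 1 to 4. *Isg15*, the ubiquitin-like modifier, read 4.69, 4.75, 4.82 and 4.71 in WT 1 to 4 and 5.06, 5.31, 5.63 and 5.27 in *Atg16l1* ΔIEC 1 to 4. The groups did not overlap in any of the 3, although *Atg16l1* ΔIEC 3 was the highest *Atg16l1* ΔIEC library in each. *Oas1a* rose by 0.70 (SE 0.11, limma adjusted p = 0.00099), *Parp14* by 0.66 (SE 0.13, 0.0035) and *Oas1g* by 0.57 (SE 0.07, 0.00013), and these were the 3 members that also passed with the pair as a random effect. *Isg15* (log2 fold change 0.57) lost its call without *Atg16l1* ΔIEC 2, 3 or 4 or WT 1, 2, 3 or 4 (log2 fold changes 0.47 to 0.60). Across the list, called members numbered 4 without *Atg16l1* ΔIEC 3 or 4 or WT 4 and 5 without WT 1, 2 or 3. The chemokine *Cxcl10* (0.59), *Irf7* (0.54), *Rsad2* (0.48) and *Ifit1* (0.05) were not called, and *Cgas*, the DNA sensor, had -0.02; they are named as common readouts of the response and not for their values. With lane as a covariate 22 members were called higher (6.07% of all genes were) and none lower, *Isg15* and *Ifi27* among them, with a median of 0.75. Medians relative to the WT mean were 0.00, -0.01, 0.05 and -0.04 in WT 1 to 4, 0.14, 0.20, 0.40 and 0.36 in *Atg16l1* ΔIEC 1 to 4, 0.15 and 0.14 in *Rnaseh2b* ΔIEC 1 and 2 and -0.04, 0.01, 0.37 and 0.43 in *Atg16l1/Rnaseh2b* ΔIEC 1 to 4, highest in the male pair of *Atg16l1* ΔIEC and in the female pair of *Atg16l1/Rnaseh2b* ΔIEC.

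The letters GAAA, any 2 bases and GAAA again, of the interferon-stimulated response element occurred on either strand in 14 of 25 promoters of the list (56.0%) and in 3 of 5 of its called members, against 2.92% of the promoters of tested genes and 3.49% of all promoters. The *Oas1a* promoter (chr5:120907476-120907775 on the minus strand), of the gene with the largest rise among the 3 just named, holds 2 overlapping matches just before the start, in capitals as a single run.
Oas1a: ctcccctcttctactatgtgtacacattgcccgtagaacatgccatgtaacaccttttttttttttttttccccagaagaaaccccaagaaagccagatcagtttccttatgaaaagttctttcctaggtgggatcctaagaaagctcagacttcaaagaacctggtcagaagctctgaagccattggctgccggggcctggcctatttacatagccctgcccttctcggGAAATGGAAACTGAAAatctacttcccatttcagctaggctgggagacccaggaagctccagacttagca

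Antigen presentation genes that were called had small changes. Of 21 tested, 7 were called, each upward (8.72% of all genes were), and 14 were not, with a median of 0.12; *H2-Q1* (0.47) and *H2-Q2* (0.34), class I genes with shared sequence, *Psmb9* (0.42), of the immunoproteasome, and the peptide transporter *Tap1* (0.33) had the largest changes. Called members numbered 1 without *Atg16l1* ΔIEC 3, 2 without WT 3 and 3 without *Atg16l1* ΔIEC 4 or WT 4, none of the 7 calls was among those of the fit with the pair as a random effect, and lane as a covariate gave 2 higher (all genes 6.07%), none lower and a median of 0.14. In *Psmb9*, with 6.94, 6.76, 6.62 and 6.61 in WT 1 to 4 and 7.02, 7.01, 7.42 and 7.16 in *Atg16l1* ΔIEC 1 to 4, the groups were separated by less than the distance between the WT pairs. *Psmb9* lost its call without *Atg16l1* ΔIEC 3 or WT 3 (log2 fold changes 0.33 to 0.38), *H2-Q1* without *Atg16l1* ΔIEC 3 or 4 or WT 1, 3 or 4 (log2 fold changes 0.33 to 0.48), *H2-Q2* without *Atg16l1* ΔIEC 3 or 4 or WT 3 or 4 (log2 fold changes 0.26 to 0.34), and *Tap1* without *Atg16l1* ΔIEC 3 or 4 or WT 4 (log2 fold changes 0.25 to 0.32).

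Genes of TNF signalling and cell death were near the background, with 1 of 19 higher, 2 lower (8.72% and 10.4% of all genes were) and a median of 0.01. *Tnfaip3*, encoding the NF-κB inhibitor A20, read 9.47, 9.46, 9.29 and 9.26 in WT 1 to 4 and 8.63, 8.74, 8.95 and 8.90 in *Atg16l1* ΔIEC 1 to 4 and fell by 0.57 (SE 0.08, limma adjusted p = 0.00047). *Mlkl*, the executioner of necroptosis, had 0.27 and *Casp8*, its upstream brake, -0.18. *Tnfaip3* alone passed with the pair as a random effect, while *Mlkl* lost its call without WT 4 (log2 fold change 0.24) and *Casp8* without *Atg16l1* ΔIEC 1 or 2 or WT 1, 3 or 4 (log2 fold changes -0.18 to -0.15). Called members of the list numbered 1 without WT 4, and the calls with lane as a covariate were 2 higher, 3 lower (all genes 6.07% and 6.32%) and a median of 0.01. Of 14 epithelial cytokines and chemokines 2 rose (8.72% of all genes did), *Cx3cl1* (10.87, 10.81, 10.79 and 10.77 in WT 1 to 4 and 11.14, 11.02, 11.29 and 11.28 in *Atg16l1* ΔIEC 1 to 4; log2 fold change 0.38) and the T cell chemokine *Ccl25* (0.28), with a median of 0.11. *Cx3cl1* alone passed with the pair as a random effect, and *Ccl25* lost its call without *Atg16l1* ΔIEC 3 or 4 or WT 3 or 4 (log2 fold changes 0.23 to 0.26). Called members of that list numbered 1 without *Atg16l1* ΔIEC 3 or 4 or WT 3 or 4, and with lane as a covariate there were 7 higher (all genes 6.07%), none lower and a median of 0.20.

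Mucosal defence genes were divided, with 2 of 16 higher, 3 lower (8.72% and 10.4% of all genes were) and a median of 0.04. *Reg3a* and *Reg3g* (0.59) were the higher ones and share sequence. *Reg4*, a gene of the regenerating family, read 12.30, 12.11, 11.89 and 11.90 in WT 1 to 4 and 11.61, 11.44, 11.37 and 11.35 in *Atg16l1* ΔIEC 1 to 4. It had -0.61 (SE 0.12, limma adjusted p = 0.0044), the only call of the list with the pair as a random effect. *Sprr2a3* (-0.47), one of several near-identical copies, was also lower. *Reg3g* turned to -0.05 with lane as a covariate and lost its call without *Atg16l1* ΔIEC 2 or 3 or WT 2, 3 or 4 (log2 fold changes 0.47 to 0.61), and *Sprr2a3* lost its call without *Atg16l1* ΔIEC 1, 3 or 4 or WT 1 or 2 (log2 fold changes -0.48 to -0.39). Called members of this list numbered 3 without *Atg16l1* ΔIEC 2, 3 or 4 or WT 2, 3 or 4, with 2 higher, 1 lower (all genes 6.07% and 6.32%) and a median of 0.03 once lane was a covariate.

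The called stem cell and Wnt target genes were all lower. Wnt signals at the crypt base keep LGR5-positive stem cells dividing and induce feedback genes. In *Atg16l1* ΔIEC 10 of 24 tested fell (10.4% of all genes did), the other 14 were not called, and the median was -0.22. *Lgr5* itself read 12.93, 12.92, 12.53 and 12.52 in WT 1 to 4 and 11.89, 11.94, 11.82 and 11.87 in *Atg16l1* ΔIEC 1 to 4. *Olfm4*, a second marker of these stem cells, read 10.74, 10.86, 11.51 and 11.79 in WT 1 to 4 and 9.64, 10.82, 9.88 and 9.68 in *Atg16l1* ΔIEC 1 to 4. *Rgmb*, a BMP co-receptor of the stem cell signature, read 11.07, 11.14, 10.95 and 11.05 in WT 1 to 4 and 10.30, 10.40, 10.17 and 10.27 in *Atg16l1* ΔIEC 1 to 4. *Myc*, a Wnt target that drives growth, read 10.25, 10.24, 10.18 and 10.30 in WT 1 to 4 and 9.74, 9.55, 9.46 and 9.44 in *Atg16l1* ΔIEC 1 to 4. *Lgr5*, *Rgmb* and *Myc* were separated by more than 0.4 between the groups, whereas *Olfm4* varied widely within each genotype and *Atg16l1* ΔIEC 2 stood above WT 1. Log2 fold changes were -0.85 (SE 0.11) for *Lgr5*, -1.22 (SE 0.28) for *Olfm4*, -0.77 (SE 0.08) for *Rgmb* and -0.69 (SE 0.10) for *Myc*, with limma adjusted p of 0.00024, 0.0085, 6.8e-05 and 0.00048. With the pair as a random effect 5 members passed, *Lgr5*, *Rgmb* and *Myc* among them and *Olfm4* not. With lane as a covariate 9 were called lower (6.32% of all genes were) and none higher, with a median of -0.30. The summed linear level of the list was 77500 to 82900 in WT and 58700 to 68400 in *Atg16l1* ΔIEC, with medians relative to the WT mean of 0.03, 0.02, -0.05 and -0.01 in WT 1 to 4, -0.18, -0.20, -0.35 and -0.30 in *Atg16l1* ΔIEC 1 to 4, -0.10 and -0.14 in *Rnaseh2b* ΔIEC 1 and 2 and 0.23, 0.11, 0.00 and -0.05 in *Atg16l1/Rnaseh2b* ΔIEC 1 to 4. In bulk libraries fewer cells of a type and less RNA per cell cannot be told apart, here and for every cell type below.

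Called proliferation genes had small changes, in both directions. Of 27 DNA replication genes 4 rose (8.72% of all genes did), *Ccne1* (0.30), *Rrm2* (0.17), *Tk1* (0.16) and *Cdt1* (0.14), with a median of 0.09. *Cdt1* lost its call without *Atg16l1* ΔIEC 1 or 2 or WT 1, 2 or 3 (log2 fold changes 0.11 to 0.15), and the median of the replication list turned with lane as a covariate, which gave 1 lower (all genes 6.32%), none higher and a median of -0.08. Of 24 mitosis genes 1 rose, *Birc5* (0.18), and 5 fell (8.72% and 10.4% of all genes did), among them *Cenpf* (-0.17), *Bub1b* (-0.17) and *Bub1* (-0.15), around a median of -0.03. The mitosis count was unsteady, at 2 without *Atg16l1* ΔIEC 3 or WT 1 and 3 without *Atg16l1* ΔIEC 4 or WT 3, and lane as a covariate gave 4 lower (all genes 6.32%), none higher and a median of -0.13. *Cenpf* lost its call without *Atg16l1* ΔIEC 3 or WT 1 (log2 fold changes -0.15 to -0.14) and *Bub1* without *Atg16l1* ΔIEC 2, 3 or 4 or WT 1, 3 or 4 (log2 fold changes -0.15 to -0.12). None of the calls in the replication and mitosis lists was among those of the fit with the pair as a random effect.

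Targets of p53 were likewise mixed, 3 of 26 higher and 6 lower (8.72% and 10.4% of all genes were) around a median of -0.01. *Cdkn1a*, the cell cycle inhibitor p21, read 12.93, 12.85, 12.83 and 12.80 in WT 1 to 4 and 12.35, 12.44, 12.67 and 12.64 in *Atg16l1* ΔIEC 1 to 4. Each *Atg16l1* ΔIEC library was below each WT library (log2 fold change -0.33, SE 0.08, limma adjusted p = 0.016), most clearly *Atg16l1* ΔIEC 1 and 2. *Polk* (-0.30), a translesion polymerase, and *Btg2* (-0.21) were lower and the death receptor *Fas* (0.25) higher. Called p53 targets numbered 4 without WT 1 and 5 without *Atg16l1* ΔIEC 2 or 3 or WT 3 or 4, and the pair as a random effect gave no call in this list, where limma found 12 members at an unadjusted p under 0.05 without it. *Btg2* lost its call without *Atg16l1* ΔIEC 1, 2 or 4 or WT 1, 2, 3 or 4 (log2 fold changes -0.23 to -0.19) and *Fas* without *Atg16l1* ΔIEC 3 or WT 1 or 4 (log2 fold changes 0.20 to 0.22). The p53 list had 5 lower (all genes 6.32%), none higher and a median of -0.09 with lane as a covariate.

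The called goblet cell genes were all lower. Goblet cells secrete the mucus gel, built on MUC2 and its partners. Of 14 tested members 6 fell (10.4% of all genes did) and 8 were not called, with a median of -0.24. *Clca1*, a secreted mucus protease, read between 8.99 and 9.19 in the 4 WT libraries and 8.03, 7.99, 8.23 and 8.47 in *Atg16l1* ΔIEC 1 to 4. *Zg16*, a mucus lectin, read 10.85, 10.82, 10.69 and 10.74 in WT 1 to 4 and 10.04, 9.50, 9.98 and 10.22 in *Atg16l1* ΔIEC 1 to 4. *Tff3*, the trefoil peptide, read 13.50, 13.53, 13.65 and 13.69 in WT 1 to 4 and 13.13, 13.26, 12.68 and 12.85 in *Atg16l1* ΔIEC 1 to 4. All *Atg16l1* ΔIEC libraries lay below all WT libraries in the 3 genes, with log2 fold changes of -0.91 (SE 0.10), -0.84 (SE 0.22) and -0.61 (SE 0.11) and limma adjusted p of 0.00011, 0.017 and 0.0022. *Fcgbp*, the most abundant member, had -0.56 (SE 0.14). *Muc2* read 10.75, 10.81, 11.49 and 11.50 in WT 1 to 4 and 11.06, 10.89, 10.91 and 11.16 in *Atg16l1* ΔIEC 1 to 4, overlapping between groups (log2 fold change -0.13, SE 0.15, limma adjusted p = 0.59). The summed linear level of the list was 64500 to 90900 in WT and 46600 to 57400 in *Atg16l1* ΔIEC, with WT 3 and 4 above WT 1 and 2. Only *Clca1* and *Tff3* of the 6 passed with the pair as a random effect, and lane as a covariate gave 4 lower (all genes 6.32%), none higher and a median of -0.24. Medians relative to the WT mean were -0.21, -0.15, 0.17 and 0.16 in WT 1 to 4, -0.15, -0.21, -0.45 and -0.33 in *Atg16l1* ΔIEC 1 to 4, -0.30 and -0.48 in *Rnaseh2b* ΔIEC 1 and 2 and 0.29, 0.17, 0.16 and 0.08 in *Atg16l1/Rnaseh2b* ΔIEC 1 to 4. The female *Atg16l1* ΔIEC 1 and 2 thus stood level with the male WT 1 and 2, and over both sexes the list medians overlapped between genotypes. Within each sex, a split chosen after the data were seen, both *Atg16l1* ΔIEC libraries lay below both WT libraries. That split sets 1 pair against 1 pair and supports no conclusion. It did not separate the Paneth cell list, where the females read -0.04 and 0.13 in *Atg16l1* ΔIEC and 0.05 and 0.10 in WT.

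Among 15 tested Paneth cell genes, 3 fell (10.4% of all genes did), *Nupr1* (-0.81), *Kit* (-0.79) and *Wnt3* (-0.34), with a median of -0.24. *Kit*, a receptor tyrosine kinase gene, read 8.94, 8.97, 9.11 and 9.06 in WT 1 to 4 and 8.26, 8.46, 7.90 and 8.30 in *Atg16l1* ΔIEC 1 to 4. *Wnt3*, the Wnt ligand that Paneth cells offer to stem cells, read 7.26, 7.13, 7.27 and 7.38 in WT 1 to 4 and 6.99, 7.16, 6.65 and 6.88 in *Atg16l1* ΔIEC 1 to 4. *Lyz1*, the Paneth cell lysozyme, read 12.25, 12.28, 12.72 and 12.64 in WT 1 to 4, 12.81 and 12.96 in *Atg16l1* ΔIEC 1 and 2 and at most 12.04 in *Atg16l1* ΔIEC 3 and 4. *Kit* was separated between the genotypes and alone passed with the pair as a random effect, *Wnt3* overlapped at 1 library, and in *Lyz1* the pairs within each genotype differed more than the genotypes (log2 fold change -0.02, SE 0.19, limma adjusted p = 0.96). The sign of the *Lyz1* estimate changed with the library left out, at 0.13 without *Atg16l1* ΔIEC 3, 0.12 without *Atg16l1* ΔIEC 4, 0.06 without WT 3 and 0.04 without WT 4. *Nupr1*, a stress gene also listed with the amino acid response, lost its call without *Atg16l1* ΔIEC 3 or WT 2 (log2 fold changes -0.79 to -0.75) and read 0.23 with lane as a covariate. The remaining members, defensins included, were not called, and *Itln1*, the most abundant, had -0.31. Summed linear levels of the list were 41300 to 42900 in WT and 27200 to 40900 in *Atg16l1* ΔIEC, and called members numbered 5 without *Atg16l1* ΔIEC 1 or 2. List medians relative to the WT mean were -0.05, -0.05, 0.05 and 0.10 in WT 1 to 4 and -0.04, 0.13, -0.47 and -0.43 in *Atg16l1* ΔIEC 1 to 4, so *Atg16l1* ΔIEC 1 and 2 stood near WT and the lower level lay in *Atg16l1* ΔIEC 3 and 4. Lane as a covariate gave 2 lower (all genes 6.32%), none higher and a median of -0.20.

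Enteroendocrine genes were called lower in 5 of 20 cases (10.4% of all genes were), with a median of -0.18. The hormone gene *Ghrl* read 9.44, 9.28, 9.41 and 9.39 in WT 1 to 4 and 8.82, 9.20, 8.61 and 8.89 in *Atg16l1* ΔIEC 1 to 4. The granule protein gene *Chga* read 11.28, 11.27, 11.61 and 11.66 in WT 1 to 4 and 11.20, 11.09, 10.75 and 10.92 in *Atg16l1* ΔIEC 1 to 4. *Ghrl* had -0.50 (SE 0.11, limma adjusted p = 0.0086), *Pcsk1*, a prohormone convertase gene, -0.50 (SE 0.10, 0.0049) and *Chga* -0.47 (SE 0.10, 0.0078), in each with no overlap between groups. *Neurog3*, the factor that commits cells to this lineage, had -0.41 and lost its call without *Atg16l1* ΔIEC 3 or 4 or WT 2, 3 or 4 (log2 fold changes -0.43 to -0.31). Called members numbered 3 without *Atg16l1* ΔIEC 3 or 4 or WT 3 or 4, and no member passed with the pair as a random effect, against 9 at an unadjusted p under 0.05 in limma without it. The enteroendocrine list had 2 lower (all genes 6.32%), none higher and a median of -0.12 once lane was a covariate. Tuft cell genes gave 0 calls of 12 tested by limma, with 2 at an unadjusted p under 0.05, a median of -0.07 and a count of 1 without *Atg16l1* ΔIEC 2 or WT 2. The tuft cell kinase *Dclk1* had -0.17 (SE 0.09, limma adjusted p = 0.2) and overlapped between the groups, and the tuft list had 2 lower (all genes 6.32%), none higher and a median of -0.26 with lane as a covariate.

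Absorptive enterocyte genes were called higher in 6 of 31 cases (8.72% of all genes were), 25 were not called and the list had a median of 0.29. That upward shift was gone once lane was a covariate, with 2 lower (all genes 6.32%), none higher and a median of -0.01. Without that covariate, upper quartile scaling gave 10 higher and median scaling 9 (1361 and 1216 of all 12804 genes tested were then higher). *Treh*, the trehalase of the brush border, read 10.10, 9.90, 9.43 and 9.49 in WT 1 to 4 and 10.12, 10.06, 10.78 and 10.57 in *Atg16l1* ΔIEC 1 to 4. *Enpep*, a brush border aminopeptidase, read 10.85, 10.68, 10.76 and 10.72 in WT 1 to 4 and 11.29, 11.14, 11.42 and 11.28 in *Atg16l1* ΔIEC 1 to 4. In *Treh* WT 3 and 4 were low and *Atg16l1* ΔIEC 3 and 4 high, with WT 1 inside the range of the *Atg16l1* ΔIEC libraries, whereas *Enpep* was higher in all 4 *Atg16l1* ΔIEC libraries by about the same amount. Log2 fold changes were 0.65 (SE 0.19) and 0.53 (SE 0.10), with limma adjusted p of 0.031 and 0.004. *Enpep* alone passed with the pair as a random effect. *Treh* lost its call without *Atg16l1* ΔIEC 3 or 4 or WT 3 or 4 (log2 fold changes 0.52 to 0.59), and called members of the list numbered 1 without *Atg16l1* ΔIEC 4 or WT 3 or 4, 2 without *Atg16l1* ΔIEC 3 and 11 without *Atg16l1* ΔIEC 2. *Alpi* (0.29) and *Fabp1* (0.42), 2 common enterocyte markers, were not called. The summed linear level was 285000 to 416000 in WT and 333000 to 530000 in *Atg16l1* ΔIEC, overlapping ranges, and list medians relative to the WT mean were 0.25, 0.09, -0.12 and -0.18 in WT 1 to 4 and 0.09, 0.14, 0.66 and 0.47 in *Atg16l1* ΔIEC 1 to 4, also overlapping. Within each sex, a split chosen after the data were seen, both *Atg16l1* ΔIEC medians lay above both WT medians, but it sets 1 pair against 1 pair and supports no conclusion.

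Regional and fetal programmes were mostly not called. Of 9 ileal genes 1 rose (8.72% of all genes did), the bile acid transporter subunit *Slc51a* (0.33), which lost its call without *Atg16l1* ΔIEC 3 or 4 or WT 2, 3 or 4 (log2 fold changes 0.25 to 0.35), and the ileal median was 0.02, with a count of 0 without *Atg16l1* ΔIEC 3 or 4 or WT 2, 3 or 4 and 2 without *Atg16l1* ΔIEC 1. None of 8 duodenal and jejunal genes was called by limma, 1 having an unadjusted p under 0.05, at a median of 0.06. Of 18 fetal-like and YAP target genes 1 fell (10.4% of all genes did), *Ajuba* (8.17, 8.09, 8.26 and 8.47 in WT, 7.75, 7.93, 7.70 and 7.59 in *Atg16l1* ΔIEC; log2 fold change -0.51), and the list median was -0.30, with a count of 2 without *Atg16l1* ΔIEC 2. Medians relative to the WT mean were -0.25, -0.26, 0.28 and 0.27 in WT 1 to 4 and -0.17, -0.02, -0.45 and -0.47 in *Atg16l1* ΔIEC 1 to 4, so the WT pairs stood further apart than the genotypes. Within each sex, a split chosen after the data were seen, both *Atg16l1* ΔIEC medians lay below both WT medians. That split sets 1 pair against 1 pair and supports no conclusion. Under it the median log2 fold change was -0.14 in females and 0.17 in males for the ileal list. For the duodenal and jejunal list it was 0.36 and -0.17. Neither call passed with the pair as a random effect. Lane as a covariate gave 2 lower (all genes 6.32%), none higher and a median of -0.12 for the ileal list, 1 higher (all genes 6.07%), none lower and a median of 0.26 for the duodenal list and no call and a median of 0.12 for the fetal-like list.

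Of 33 genes of initiation and conjugation 4 rose and 4 fell, 24.2% against 19.1% of all genes, with a median of -0.02. *Atg9a*, the lipid scramblase of the growing membrane, read 9.96, 9.97, 9.97 and 9.90 in WT 1 to 4 and 9.52, 9.47, 9.41 and 9.47 in *Atg16l1* ΔIEC 1 to 4. *Atg2b*, which transfers lipid to it, read between 10.88 and 10.99 in WT 2 to 4, higher still in WT 1, and 10.75, 10.60, 10.64 and 10.57 in *Atg16l1* ΔIEC 1 to 4. Both genes were separated between groups, with log2 fold changes of -0.48 (SE 0.03) and -0.32 (SE 0.04) and limma adjusted p of 2.7e-06 and 0.00022, and these were the only members that passed with the pair as a random effect. *Atg9a* and *Atg2b* were also called lower with lane as a covariate, and in *Atg16l1/Rnaseh2b* ΔIEC *Atg9a* read 9.76, 9.84, 9.76 and 9.78. *Atg13* (0.26), of the initiating kinase complex, was higher and the protease *Atg4d* (-0.23) lower. The partners of ATG16L1, looked up for their role, were *Atg5* 0.03 and *Atg12* -0.03, its paralogue *Atg16l2* had -0.16, and *Map1lc3b*, encoding LC3B, 0.10, all uncalled. Over the list, lane as a covariate gave 3 lower (all genes 6.32%), none higher and a median of -0.03.

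Among 19 autophagy receptors and regulators 1 rose and 3 fell (8.72% and 10.4% of all genes did), with a median of -0.05. *Ncoa4*, the receptor for ferritin, read 8.54, 8.52, 8.34 and 8.37 in WT 1 to 4 and 7.90, 7.98, 7.90 and 7.90 in *Atg16l1* ΔIEC 1 to 4 and fell by 0.52 (SE 0.08, limma adjusted p = 0.00097), the only one to pass with the pair as a random effect. *Rubcn* (-0.21), a brake on autophagosome maturation, and the mitophagy receptor *Fundc1* (-0.14) were lower and *Tfe3* (0.11) higher. *Rubcn* lost its call without *Atg16l1* ΔIEC 3 or 4 or WT 1 or 2 (log2 fold changes -0.19 to -0.17), *Fundc1* without *Atg16l1* ΔIEC 4 (log2 fold change -0.13) and *Tfe3* without *Atg16l1* ΔIEC 4 or WT 3 (log2 fold changes 0.10 to 0.11), and called members numbered 1 without *Atg16l1* ΔIEC 4, with 1 higher, 1 lower (all genes 6.07% and 6.32%) and a median of -0.03 once lane was a covariate. Of 35 lysosomal genes 1 rose and 6 fell (8.72% and 10.4% of all genes did), with a median of -0.03. *Atp6ap1*, an accessory subunit of the proton pump, had -0.22 (SE 0.03) and was 1 of only 2 of these 7 to be called with the pair as a random effect. *Hexa* had -0.27, and *Ctss*, cathepsin S, 0.32. *Ctss* lost its call without *Atg16l1* ΔIEC 3 or 4 or WT 3 or 4 (log2 fold changes 0.27 to 0.29), and the lysosome list had 4 higher, 3 lower (all genes 6.07% and 6.32%) and a median of -0.02 with lane as a covariate.

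In the unfolded protein response of the endoplasmic reticulum 2 of 26 genes rose and 3 fell (8.72% and 10.4% of all genes did), with a median of -0.01 (1 higher (all genes 6.07%), none lower and a median of 0.03 with lane as a covariate). *Ddit3*, encoding the transcription factor CHOP, read 10.48, 10.48, 9.95 and 9.93 in WT 1 to 4 and 9.42, 9.49, 9.44 and 9.60 in *Atg16l1* ΔIEC 1 to 4 and had -0.73 (SE 0.13, limma adjusted p = 0.0019), with WT 1 and 2 above WT 3 and 4, and it alone passed with the pair as a random effect. *Edem1* (-0.22) and *Dnajb9* (-0.22) were lower and *Dnajb11* (0.13) higher, the last losing its call without *Atg16l1* ΔIEC 1 or 2 or WT 2, 3 or 4 (log2 fold changes 0.10 to 0.13). Of 22 ATF4 and amino acid response genes 2 fell (10.4% of all genes did), *Nupr1* and *Sesn2* (-0.17), neither of which passed with the pair as a random effect, with a median of -0.02. *Sesn2* lost its call without *Atg16l1* ΔIEC 2, 3 or 4 or WT 1, 3 or 4 (log2 fold changes -0.19 to -0.14) and read 0.01 with lane as a covariate. *Nupr1* lost its own without *Atg16l1* ΔIEC 3 or WT 2 (log2 fold changes -0.79 to -0.75) and had 0.23 with that covariate. The ATF4 list then held 0 without *Atg16l1* ΔIEC 3 and 1 without *Atg16l1* ΔIEC 2 or 4 or WT 1, 2, 3 or 4, whereas with lane as a covariate 11 members were called higher (6.07% of all genes were) and none lower, and the median turned to 0.34.

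The called cholesterol synthesis genes were all higher, by small amounts. SREBP2 induces the enzymes of the mevalonate pathway when sterols in the membrane run low. In *Atg16l1* ΔIEC 10 of 25 were called, each upward (8.72% of all genes were), and 15 were not, with a median of 0.12. *Hsd17b7* read 10.70, 10.70, 10.83 and 10.68 in WT 1 to 4 and 11.04, 11.10, 11.09 and 11.13 in *Atg16l1* ΔIEC 1 to 4. The groups did not overlap in this reductase gene of the later steps (log2 fold change 0.36, SE 0.05, limma adjusted p = 0.00049). *Mvd* had 0.26 and *Hmgcs1* 0.24. Only 2 of the 10, *Hsd17b7* among them, passed with the pair as a random effect, and with lane as a covariate limma called 0 of 25 where 15 had an unadjusted p under 0.05 without it, at a median of 0.04. Of 14 fatty acid synthesis genes 2 rose, *Me1* (0.45) and *Srebf1* (0.14), and *Acsl3* (-0.20) fell (8.72% and 10.4% of all genes did), with a median of 0.06. None of the 3 passed with the pair as a random effect. *Srebf1* lost its call without *Atg16l1* ΔIEC 1, 3 or 4 or WT 3 or 4 (log2 fold changes 0.12 to 0.14). Lane as a covariate turned the median of that list, with 1 higher, 2 lower (all genes 6.07% and 6.32%) and a median of -0.07.

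Mitochondrial and peroxisomal lipid use gave 2 calls of 24 (19.1% of all genes were called), with a median of 0.04 (2 higher (all genes 6.07%), none lower and a median of -0.02 with lane as a covariate). *Ppargc1a*, encoding the coactivator PGC-1α of mitochondrial genes, read 9.46, 9.40, 9.21 and 9.10 in WT 1 to 4 and 8.39, 8.36, 8.64 and 8.67 in *Atg16l1* ΔIEC 1 to 4 and had -0.78 (SE 0.11, limma adjusted p = 0.00048), which alone passed with the pair as a random effect. *Ehhadh* (0.31) rose but lost its call without *Atg16l1* ΔIEC 3 or 4 or WT 3 or 4 (log2 fold changes 0.24 to 0.28), so that the list then held *Ppargc1a* alone. Respiratory chain genes numbered 5 higher and 2 lower of 76, below the 8.72% and 10.4% of all genes, with a median of 0.04, and their direction turned with lane as a covariate, which gave 6 lower (all genes 6.32%), none higher and a median of -0.06. The complex I subunit *Ndufs3* read 10.31, 10.26, 10.29 and 10.25 in WT 1 to 4 and 10.04, 10.08, 10.01 and 9.99 in *Atg16l1* ΔIEC 1 to 4 and had -0.25 (SE 0.03, limma adjusted p = 0.00013), the single call of that list with the pair as a random effect. *Ndufb7* (0.19), *Ndufs1* (0.15) and *Ndufa2* (0.15), of the same complex, were higher. Called respiratory genes numbered 4 without *Atg16l1* ΔIEC 4.

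Cytosolic ribosomal protein genes, whose many processed copies make single genes uncertain, were called in 7 of 79 cases, each upward and by at most 0.22, a share of 8.86% against 8.72% of all genes, with a median of 0.07. None of the 7 passed with the pair as a random effect. Their count was 3 without WT 1 or 2, 4 without *Atg16l1* ΔIEC 2 or WT 3 and 11 without WT 4, and lane as a covariate gave 10 higher (all genes 6.07%), none lower and a median of 0.07. *Rps16* (0.22), *Rpl22l1* (0.19), *Rpl21* (0.19) and *Rpl35* (0.18) led them, and *Rpl21* lost its call without *Atg16l1* ΔIEC 1 or 4 or WT 1, 2 or 3 (log2 fold changes 0.16 to 0.19). Of 18 clock genes 3 fell (10.4% of all genes did), *Bhlhe40* (13.04, 13.02, 12.97 and 12.98 in WT 1 to 4 and 12.58, 12.51, 12.68 and 12.71 in *Atg16l1* ΔIEC 1 to 4; log2 fold change -0.38), *Ciart* (-0.26) and *Per2* (-0.20), with a median of -0.06. *Bhlhe40* is also induced by hypoxia, and it alone passed with the pair as a random effect. *Ciart* lost its call without *Atg16l1* ΔIEC 3 or 4 or WT 2, 3 or 4 (log2 fold changes -0.26 to -0.21) and read 0.00 with lane as a covariate, *Per2* lost it without *Atg16l1* ΔIEC 1, 2 or 3 or WT 1, 2, 3 or 4 (log2 fold changes -0.22 to -0.15), and called clock genes numbered 1 without *Atg16l1* ΔIEC 3 or WT 2, 3 or 4, with 2 higher, 2 lower (all genes 6.07% and 6.32%) and a median of 0.02 once lane was a covariate. Xenobiotic cytochrome P450 genes and their receptors gave 0 calls of 22 by limma, 5 having an unadjusted p under 0.05, with a median of 0.09 and a count of 1 without *Atg16l1* ΔIEC 1 or WT 1 and 2 without *Atg16l1* ΔIEC 2. Lane as a covariate gave 1 higher, 2 lower (all genes 6.07% and 6.32%) and a median of -0.11 there.

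**Figure D2:**
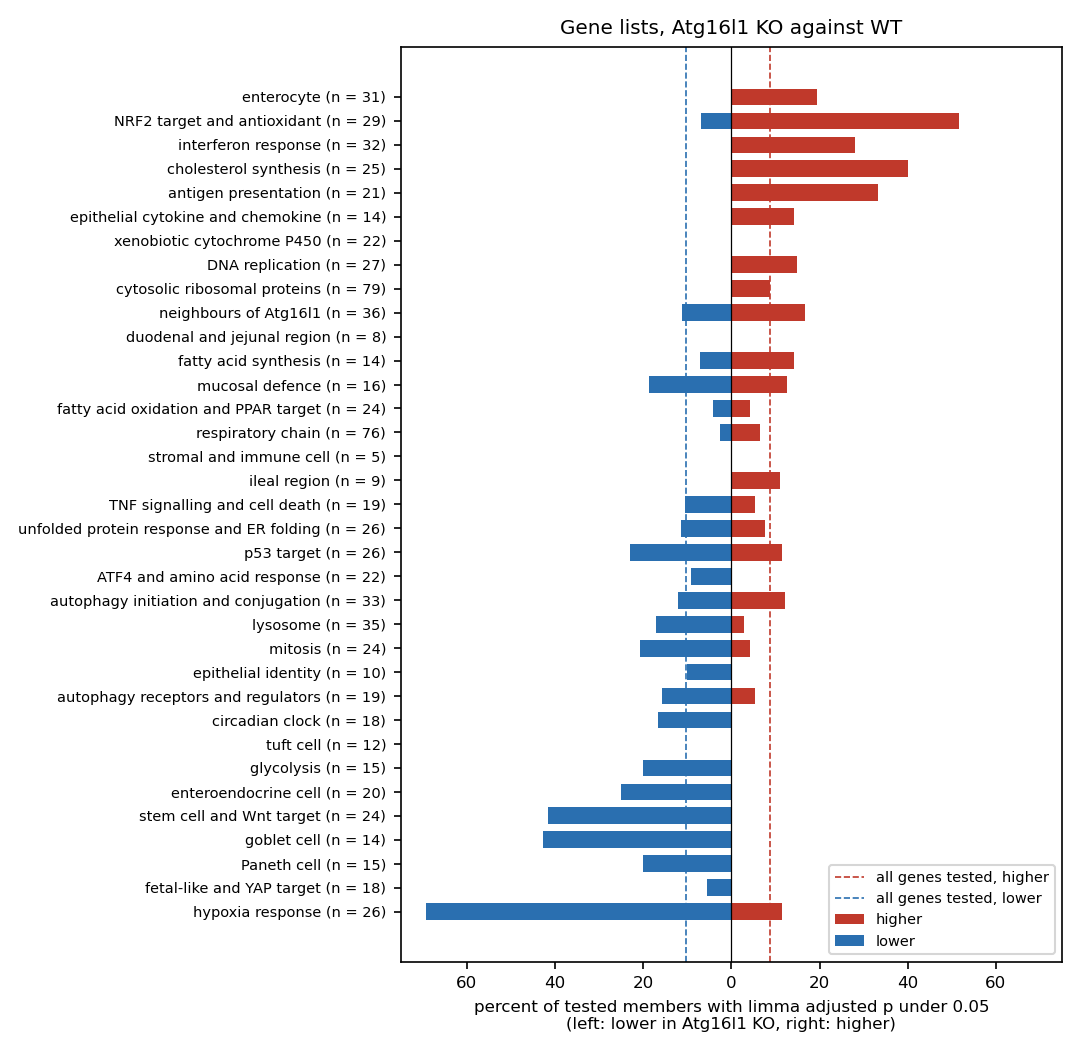
Share of the tested members of each gene list that was called higher (right, red) or lower (left, blue) in *Atg16l1* knockout against WT organoids by limma at an adjusted p of 0.05 (x axis, percent of tested members; lists ordered by median log2 fold change; dashed lines, all genes tested, 8.72% higher and 10.4% lower). The hypoxia list extends furthest to the left and the NRF2 and antioxidant list furthest to the right.

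Around the targeted locus on chromosome 1, 60 genes of the table lay within 2 Mb of *Atg16l1* and 36 were tested. Of these 6 rose and 4 fell (8.72% and 10.4% of all genes did), with a median of 0.06, and called members numbered 6 without *Atg16l1* ΔIEC 3 or 4 or WT 1, 3 or 4. Upper quartile scaling gave 11 higher and 4 lower, and median scaling 8 and 4 (1361 and 1216 of all 12804 genes tested were then higher). The glucuronosyltransferases *Ugt1a8* (0.31), *Ugt1a7c* (0.28) and *Ugt1a9* (0.26), which share all but their first exon and so most of their reads, and *Gigyf2* (11.83, 11.78, 11.72 and 11.67 in WT 1 to 4 and 11.62, 11.52, 11.52 and 11.53 in *Atg16l1* ΔIEC 1 to 4; log2 fold change -0.20) had the largest changes. *Ugt1a9* lost its call without *Atg16l1* ΔIEC 3 or 4 or WT 1, 2, 3 or 4 (log2 fold changes 0.18 to 0.28), and *Ugt1a7c* was the only neighbour to pass with the pair as a random effect. Lane as a covariate gave 2 lower (all genes 6.32%), none higher and a median of 0.04.

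*Atg16l1* was also deleted on the *Rnaseh2b*-deficient background, and *Atg16l1/Rnaseh2b* ΔIEC against *Rnaseh2b* ΔIEC shares no library with the comparison above. The loss was not the same, since *Atg16l1* stood at 8.14 to 8.57 in *Atg16l1/Rnaseh2b* ΔIEC and at 6.73 to 7.35 in *Atg16l1* ΔIEC, and how complete the deletion was in *Atg16l1/Rnaseh2b* ΔIEC was not tested. There 1417 genes were higher (11.1%) and 1845 lower (14.4%), and the difference between the effects of *Atg16l1* loss passed for 4499 genes (35.1%) in a contrast over all 4 genotypes. Of the 1117 genes higher in *Atg16l1* ΔIEC, 28 were also higher in *Atg16l1/Rnaseh2b* ΔIEC (2.51% of the former list and 1.98% of the latter) and 406 were lower (36.3% and 22.0%). Of the 1333 genes lower in *Atg16l1* ΔIEC, 58 were also lower (4.35% and 3.14%) and 457 higher (34.3% and 32.3%). More genes thus moved in opposite than in the same direction, 863 against 86. Lane ran the opposite way in the second comparison, from *Rnaseh2b* ΔIEC on lane 2 to *Atg16l1/Rnaseh2b* ΔIEC with 2 libraries on lane 1. The 4499 genes became 2580 once lane was a covariate, and the part of lane in the opposition was not tested. Within lane 2, *Atg16l1/Rnaseh2b* ΔIEC 1 and 2 against *Rnaseh2b* ΔIEC held 3697 called genes. Over all libraries of these genotypes 3466 were called with lane as a covariate. *Hk2* read 10.64 and 10.67 in *Atg16l1/Rnaseh2b* ΔIEC 1 and 2 and 9.52 and 9.64 in *Rnaseh2b* ΔIEC 1 and 2, all on lane 2. In *Atg16l1* ΔIEC against WT the parts of lane and genotype cannot be told apart. Among hypoxia genes, 15 of 26 were higher and 2 lower in *Atg16l1/Rnaseh2b* ΔIEC against *Rnaseh2b* ΔIEC, and the difference in effect passed for 22. The log2 fold change of *Adm* was -1.69 for *Atg16l1* ΔIEC against WT and 1.25 for *Atg16l1/Rnaseh2b* ΔIEC against *Rnaseh2b* ΔIEC, and *Hk2* had -1.41 and 1.24. *Lgr5* had -0.85 and 0.75, and *Clca1* -0.91 and 1.18. The difference between both effects was 2.94 for *Adm*, 2.66 for *Hk2*, 1.59 for *Lgr5* and 2.09 for *Clca1* (limma adjusted p = 2.8e-05, 1.8e-06, 4.6e-05 and 6.2e-06). The counts of this second comparison rested on 2 *Rnaseh2b* ΔIEC libraries: without *Rnaseh2b* ΔIEC 1 it held 1337 called genes and without *Rnaseh2b* ΔIEC 2 757, and the difference in effect 2981 and 2704. With the pair as a random effect it held 692 genes, and the difference 1553.

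Among the 86 genes called in the same direction in both comparisons, *Atg16l1* had -2.54 for *Atg16l1* ΔIEC and -1.13 for *Atg16l1/Rnaseh2b* ΔIEC, a smaller fall (difference 1.40, limma adjusted p = 0.00022). *Olfm4* had -1.22 and -1.34, *Tinag* 0.72 and 0.32, *Gclc* 0.40 and 0.37, *Hexa* -0.27 and -0.32, *Ugt1a8* 0.31 and 1.75, and *Acsl3* -0.20 and -0.16. *Ugt1a8* was low in *Rnaseh2b* ΔIEC (5.77 and 5.74), at -1.54 against WT, and *Atg16l1/Rnaseh2b* ΔIEC had 0.21 against WT. The same values were -0.24 and 0.08 for *Tinag*, so the second rise of both genes lay mostly in a low *Rnaseh2b* ΔIEC level. They were -0.16 and -1.51 for *Olfm4*, 0.02 and 0.39 for *Gclc* and -0.04 and -0.36 for *Hexa*. *Olfm4* in *Rnaseh2b* ΔIEC 1 and 2 read 11.30 and 10.83, and in *Atg16l1/Rnaseh2b* ΔIEC 1 to 4 10.02, 9.38, 9.71 and 9.77. Relative to WT, whose libraries both of the following comparisons share with *Atg16l1* ΔIEC, the *Rnaseh2b* ΔIEC and *Atg16l1/Rnaseh2b* ΔIEC values of *Adm* were -1.76 and -0.51, those of *Lgr5* -0.97 and -0.22, *Clca1* -1.68 and -0.50, *Oas1a* 0.40 and 0.62, and *Atg9a* -0.09 and -0.17. *Rnaseh2b* ΔIEC was thus below WT in *Adm* as *Atg16l1* ΔIEC was, while *Atg9a* in *Rnaseh2b* ΔIEC was not called against WT. In the same order, the hypoxia list had medians of -0.59 and -0.24 against WT, and the antioxidant list 0.19 and 0.20.

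**Figure D3:**
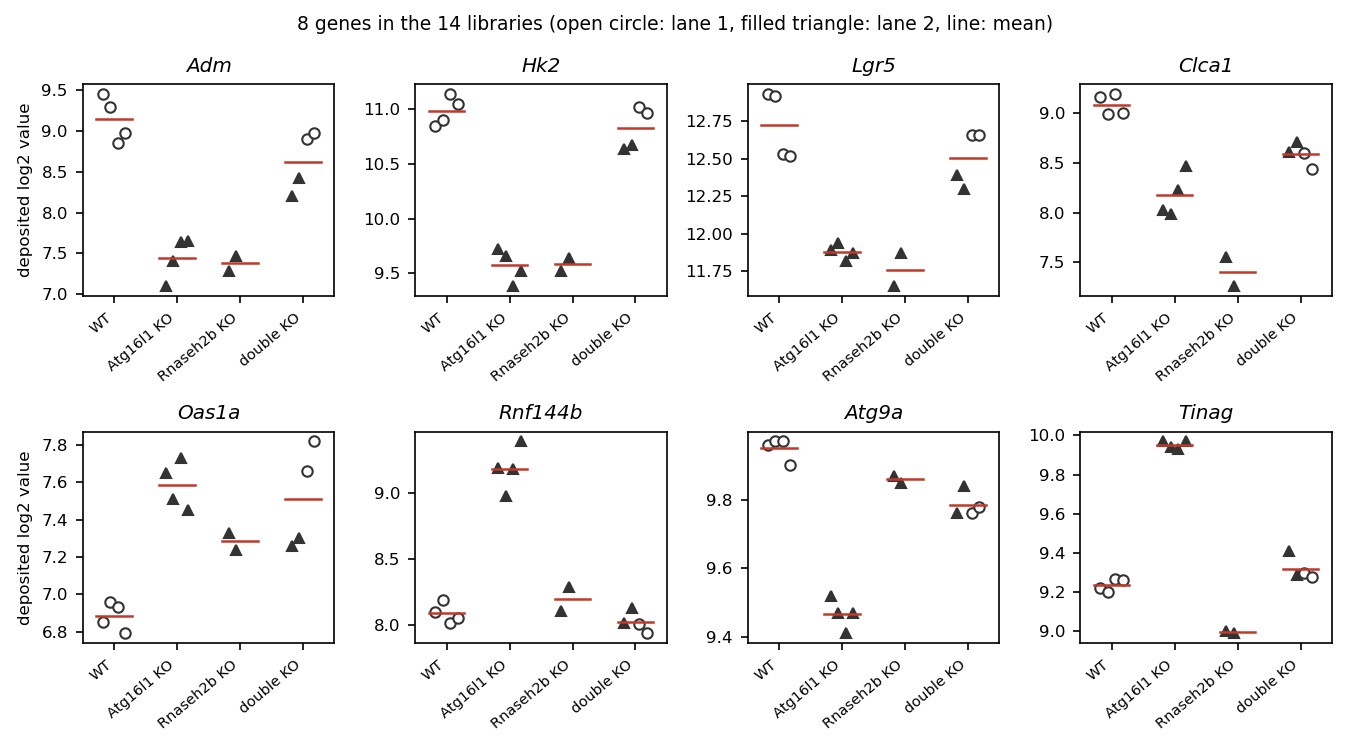
Deposited log2 value of 8 genes (y axis, a scale per gene) in the 14 libraries of the 4 genotypes (x axis; 1 symbol per library, open circles lane 1, filled triangles lane 2, lines group means). *Adm* and *Hk2* are low in the *Atg16l1* and *Rnaseh2b* knockout libraries, all on lane 2. The double knockout libraries of lane 2 stand between the *Atg16l1* knockout and WT libraries in both genes, and the part of lane was not tested. *Atg9a* is low in the *Atg16l1* knockout libraries, at 9.41 to 9.52 against 9.90 to 9.97 in WT.

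Markers of intestinal epithelium were abundant in all 8 libraries. Of 10 genes of epithelial identity 1 fell (10.4% of all genes did), the intestinal factor *Cdx2* (-0.14, 12.54, 12.58, 12.60 and 12.63 in WT 1 to 4 and 12.41, 12.43, 12.48 and 12.45 in *Atg16l1* ΔIEC 1 to 4), which did not pass with the pair as a random effect, with a median of -0.04 and a count of 2 without *Atg16l1* ΔIEC 1 or 2. Lane as a covariate gave no call and a median of -0.01 in this list and no call and a median of 0.05 in the next. Summed linear levels of this list were 196000 to 205000 in WT and 191000 to 200000 in *Atg16l1* ΔIEC. Of 20 stromal and immune markers 15 matched the table and 5 were tested. Limma called 0 of them, with 0 at an unadjusted p under 0.05, and their median was 0.03. The summed linear level of the 15 was 168 to 188 in WT and 172 to 187 in *Atg16l1* ΔIEC, with *Itgam* or *Pdgfrb* the most abundant. *Ptprc* (mean 0.49 over the 8 libraries), *Cd3e* (-1.33), *Adgre1* (-1.97) and *Col1a2* (-1.33), defining markers of leukocytes, T cells, macrophages and fibroblasts, all lay far below the level at which genes were tested, in both genotypes.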

How the data were processed

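Total RNA of organoids was made into stranded mRNA libraries. Per the submitters' notes, cutadapt, TopHat2 (GRCm38), HTSeq and DESeq2 came before the deposited values, which are log2 values already normalised by the authors, 16.9% of them below 0. The transformation is not stated, and scarce genes barely vary in it, so their fold changes may be understated. Genes with a mean log2 value at or above the log2 of 10 over the 14 libraries were fitted with limma 3.58.1 (R 4.3.3). The fit had a mean trend, 1 mean per genotype and Benjamini-Hochberg adjustment over 12804 genes, and the pair effect used statmod 1.5.0. Only the fit without the pair effect was first run on simulated libraries. These were drawn as independent, without pairs or lanes, so they do not test errors that pairs or lanes bring. Summaries and figures used Python 3.11.15, numpy 2.4.6, pandas 2.3.3, scipy 1.17.1 and matplotlib 3.10.9. Symbols (99.7% matched) came from GENCODE M21 and promoters from RefSeq. Named genes were the targets, the 12 largest rises and falls among called genes without overlap between libraries, up to 4 called members per list and members named as background; not all of them are described. Members and lists were chosen with earlier results of these data known.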

Additional observations from a re-analysis of the deposited data

Results flagged for a closer look

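In 262 groups of 4 libraries, 2 for each of 131 named genes, 7 held a library standing apart, its gap to the nearest other library filling most of the group's range. Chance alone marks about 1 in 20 such groups. They were *Atg16l1* in WT 2 (9.54, the highest WT library), *Ankrd37* in *Atg16l1* ΔIEC 1 (9.21, the lowest), *Egln3* in *Atg16l1* ΔIEC 1 (12.18, the lowest), *Ncoa4* in *Atg16l1* ΔIEC 2 (7.98, the highest), *Rrm2* in WT 1 (11.22, the highest), *Aldh1a1* in WT 1 (11.10, the highest) and *Gigyf2* in *Atg16l1* ΔIEC 1 (11.62, the highest).

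The difference between *Atg16l1/Rnaseh2b* ΔIEC against *Rnaseh2b* ΔIEC and *Atg16l1* ΔIEC against WT passed at 4499 genes. It passed at 2580 with lane as a covariate and at 1553 with the pair as a random effect. Lanes were unlike in both comparisons, and *Atg16l1* fell less in *Atg16l1/Rnaseh2b* ΔIEC, so the parts of lane and genotype cannot be told apart. Among the 4499 were the 10 largest rises and the 10 largest falls of called genes without overlap between libraries. Those genes were chosen by the same *Atg16l1* ΔIEC minus WT values that the difference subtracts. That all of them passed therefore follows in part from the choice and supports no conclusion. For the falls the difference, effect in *Atg16l1/Rnaseh2b* ΔIEC minus effect in *Atg16l1* ΔIEC, was 1.40 for *Atg16l1*, 2.94 for *Adm*, 2.66 for *Hk2*, 2.40 for *Pfkfb3*, 1.32 for *Mab21l3*, 2.21 for *Smtnl2*, 1.82 for *Dlc1*, 1.87 for *Ankrd37*, 1.92 for *Egln3* and 2.16 for *Ier3*. For the rises it was -3.99 for *Reg3a*, -1.27 for *Rnf144b*, -1.49 for *Ifi27*, -3.05 for *G6pc*, -1.29 for *Plekhm3*, -1.39 for *Cirbp*, -2.04 for *Bbox1*, -0.39 for *Tinag*, -1.03 for *Insc* and -1.03 for *Gsta2*.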

How the results depend on the processing

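The 2450 genes called between *Atg16l1* ΔIEC and WT became 1586 with lane as a covariate, 384 with the pair as a random effect, 1 with pairs averaged (1579 at an unadjusted p under 0.05) and 17 beyond an absolute log2 fold change of 1, and the cause was not tested beyond the fewer values that averaging leaves. Leaving out 1 library gave 1659 to 2465. Pseudocounts of 0.5, 1 and 5 on the linear scale gave 2449, 2449 and 2457, no filter 2222, a filter at the log2 of 50 2352, the 2 groups alone 2383, no mean trend 2434 and sex as a covariate 3363. Upper quartile scaling gave 2541, of which 1361 were higher against 1117 of 2450, and median scaling 2434 with 1216 higher; all-gene medians moved by 0.01 and no list median changed sign. The replicate number as a block gave 2666 genes, 2994 for *Atg16l1/Rnaseh2b* ΔIEC against *Rnaseh2b* ΔIEC and 4484 for the difference in effect. Same-numbered libraries did not deviate together (-0.19, -0.41, -0.38 and -0.23), so the numbers do not pair them. Libraries of the same sex in *Atg16l1* ΔIEC and WT did, at correlations across genes of 0.11 to 0.44.

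The 3262 genes of *Atg16l1/Rnaseh2b* ΔIEC against *Rnaseh2b* ΔIEC became 3466 with lane as a covariate, 3697 in the libraries of lane 2 alone, 692 with the pair as a random effect and 757 to 3288 with 1 library left out. The 4499 genes whose effect differed became 2580 with lane as a covariate, 1553 with the pair as a random effect and 2704 to 4714 with 1 library left out. Where a lone *Rnaseh2b* ΔIEC library remained, its spread was taken from the other groups. The cause of these shifts was not tested.

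Of 124 named genes called, 124 kept their call under each pseudocount and with sex as a covariate, 114 with the replicate block, 47 with the pair as a random effect, 1 (*Atg16l1*) with pairs averaged and 46 with lane as a covariate, and 88 without any 1 library. With lane as a covariate, 8 changed sign: *Slc2a5* -0.01, *Nupr1* 0.23, *Sesn2* 0.01, *Reg3g* -0.05, *Aldh1a1* -0.13, *Ciart* 0.00, *Vegfa* 0.10 and *Hmox1* 0.03. The uncalled *Lyz1* did so without *Atg16l1* ΔIEC 3 (0.13), *Atg16l1* ΔIEC 4 (0.12), WT 3 (0.06) and WT 4 (0.04). In the female or the male libraries alone, alternatives chosen after seeing the data, 87 of the 124 lay within 1 SD of libraries of the full value in each, and none changed sign. Each of these alternatives sets 1 pair against 1 pair. Unknown depth limits the reading of scarce genes.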
